A study of Mus musculus with 4 samples.

Results

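SWI/SNF chromatin remodelling subunits were examined in sorted splenic B cells of control mice and of mice with a B cell deletion of NSD1, the methyltransferase that places methyl groups on lysine 36 of histone H3. The 10 genes Smarca4, Smarca2, Smarcb1, Smarcc1, Smarcc2, Smarcd1, Smarcd2, Smarce1, Actl6a and Pbrm1 were taken by symbol from 55401 listed genes. All 10 were among the 11657 genes with enough reads to be tested. The RNA-seq series held 4 libraries of B220+ B cells from the spleen of C57BL/6J mice, 2 from NSD1B WT and 2 from NSD1B KO animals. NSD1B KO mice were Mb1-Cre+ NSD1fl/fl, with loxP sites around exons 6 to 8 of Nsd1, and the NSD1B WT controls were Mb1-Cre+ NSD1+/+ littermates. Both genotypes thus carried the Mb1-Cre (CD79a-Cre) driver, which is active from early B cell development onwards. The methods give mice of 7 to 9 weeks and both sexes for the experiments in general, and the sex and number of animals behind each library were not given. Nothing in the labels says that the libraries came from separate mice, so every p-value below measures only the spread between these libraries, which may be technical.

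SWI/SNF complexes, also called BAF complexes in mammals, use the energy of ATP hydrolysis to slide or evict nucleosomes and thereby open regulatory DNA. Each complex holds 1 of a pair of mutually exclusive ATPases, BRG1 (Smarca4) or BRM (Smarca2). In canonical BAF and PBAF the ATPase sits on a scaffold built from SMARCC, SMARCD, SMARCE1 and SMARCB1 subunits. Variant subunits such as ARID1A, PBRM1 or BRD9 define the canonical BAF, PBAF and non-canonical BAF forms. BRG1-containing complexes are required for early B cell development and for the accessibility of B lineage enhancers.

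Library totals lay between 6769118 and 7566834 reads counted in genes. Nsd1 itself had 497 and 480 reads in the NSD1B WT libraries and 284 and 280 in the NSD1B KO libraries, a log2 fold change of -0.74 (SE 0.11, adjusted p = 8.08e-08), counted over the whole gene and not over the floxed exons alone. The summed level of 10 B cell markers was 50500 to 50610 reads per 1e6 reads counted, scaled by library composition (CPM), in NSD1B WT. In NSD1B KO it was 40840 to 41540 CPM, with 7 of the 10 lower, 1 higher (Ebf1, log2 fold change 0.75), 2 not called (Cd79b and Cd22) and none at 0. Most of the sum was Cd74, with a mean of 37680 CPM in NSD1B WT and 29400 CPM in NSD1B KO. By the rule given below, 37.1% of all tested genes were higher and 41.1% lower. Markers of other blood cells also moved with genotype. The 5 erythroid markers that could be tested summed to 35.57 to 39.6 CPM in NSD1B WT and 1690 to 1944 CPM in NSD1B KO, and all 5 were higher. The 8 myeloid markers summed to 4595 and 4696 CPM in NSD1B WT and 6213 and 5845 CPM in NSD1B KO. Nearly all of it was Lyz2 (4446 and 4537 against 5891 and 5542 CPM). Of 7 tested, 6 were higher and Itgam was lower (log2 fold change -0.80). The 6 NK cell markers summed to 56.54 and 59.92 CPM against 98.53 and 96.47 CPM, most of it Nkg7 (52.2 and 56.77 against 79.91 and 79.68 CPM). Of 4 tested, 3 were higher and Klrb1c was lower (26 and 21 to 0 and 0 reads), with Ncr1 and Gzma at 0. T cell markers summed to 76.26 to 80.02 CPM over the 4 libraries, with 2 of 6 tested higher, 3 lower and Cd4 and Cd8a at 0. Plasmacytoid dendritic cell markers lay between 9366 and 10240 CPM, nearly all of it Ly6d, which B lineage cells also express, with 2 of 3 tested higher and Siglech at 0. Neutrophil markers summed to at most 5.458 CPM, with 1 of 2 tested higher and 1 lower. Plasma cell markers lay between 258.9 and 315.4 CPM, with 2 of 5 tested higher and 2 lower. The 8 proliferation genes summed to 228.2 and 233.1 CPM in NSD1B WT and 225.1 and 216.9 CPM in NSD1B KO, with 4 of 6 tested lower, 1 higher and 5 at 0 in the knockout libraries only. The part of these cells in the values below was not tested.

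Expression of 4 of the 10 subunits increased in NSD1B KO B cells (Smarca2, Smarce1, Actl6a and Pbrm1), expression of 4 decreased (Smarca4, Smarcc1, Smarcc2 and Smarcd2), and Smarcb1 and Smarcd1 did not pass the test. A call needed an adjusted p under 0.05 together with a change of more than 1.2-fold, from the quasi-likelihood test of edgeR and Benjamini-Hochberg adjustment over all 11657 tested genes. By the same rule 37.1% of all tested genes were higher and 41.1% lower, 78.2% in either direction, so 8 of 10 subunits is a share near that of genes at large. The libraries of the genotypes did not overlap for 9 subunits, 4 of them above and 5 below NSD1B WT, against 88.1% of tested genes. The median log2 fold change of the subunits was -0.16, beside -0.10 over all tested genes, and their median absolute log2 fold change was 0.58, beside 1.16. The median subunit thus moved less than the median gene, a description without a test, and the SMARCC pair moved most. In bulk RNA of sorted cells, fewer cells of a type and less RNA per cell cannot be told apart, which holds for every value given here.

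**Figure D1:**
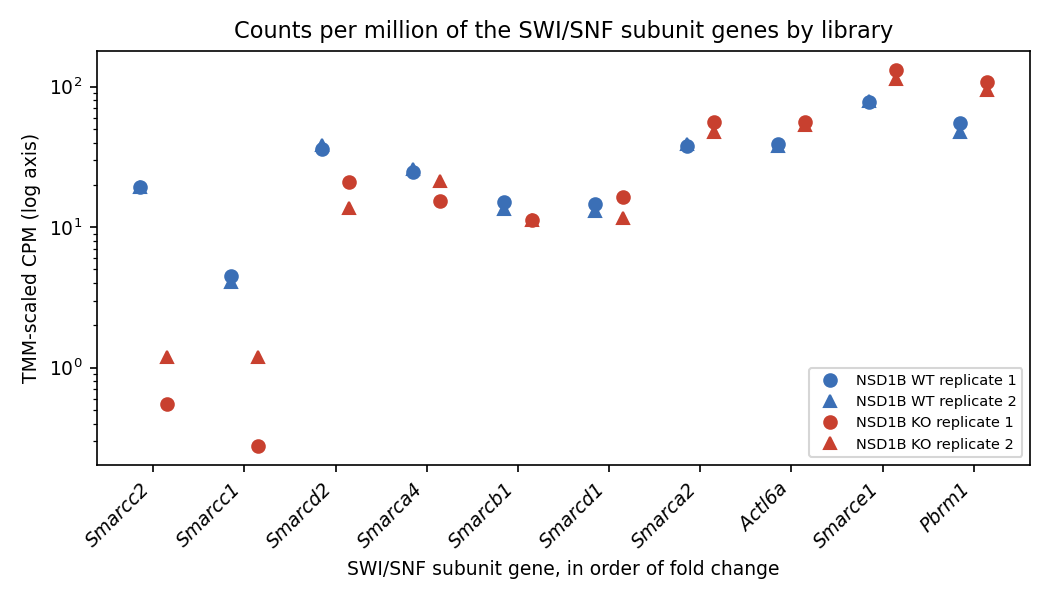
Level of each of the 10 subunits in every library, in CPM on a log axis, with NSD1B WT in blue, NSD1B KO in red, circles for replicate 1 and triangles for replicate 2. Smarcc1 and Smarcc2 show the widest gap between genotypes, with NSD1B KO libraries at 0.278 and 1.19 CPM for Smarcc1 and 0.556 and 1.19 CPM for Smarcc2, whereas the Smarcd1 libraries of the genotypes overlap.

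**Figure D2:**
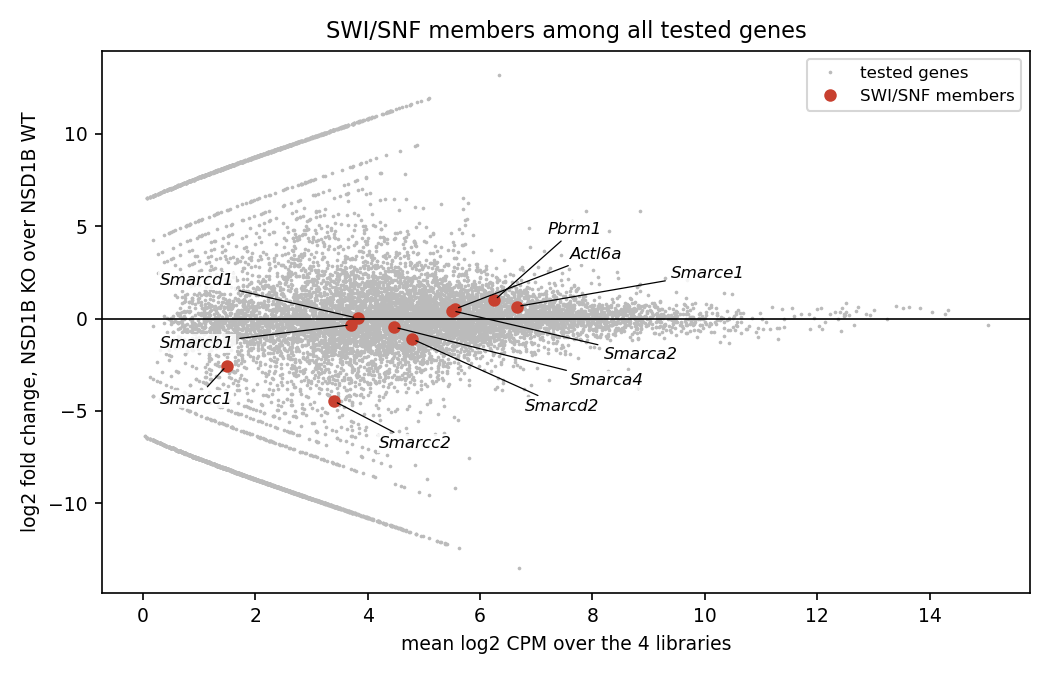
Log2 fold change of NSD1B KO over NSD1B WT against mean log2 CPM for all 11657 tested genes, with the 10 subunits in red and named; the outer bands are genes at 0 reads in one genotype, whose fitted values depend on the prior count. Most subunits lie within 1.2 log2 units of 0, and Smarcc1 and Smarcc2 lie far below the others at -2.54 and -4.46.

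The ATPases moved in opposite directions. Smarca2 (BRM; ENSMUSG00000024921.17, mm10 chr19:26605050-26778322, plus strand) was at 37.5 and 39.12 CPM in NSD1B WT and at 55.73 and 47.42 CPM in NSD1B KO. Both knockout libraries were above both controls, and the mean rose from 38.3 ± 1.14 to 51.6 ± 5.88 CPM (SD, n = 2), a log2 fold change of 0.43 (SE 0.12, adjusted p = 0.00147). Smarca4 (BRG1; ENSMUSG00000032187.16, chr9:21616169-21704230, plus strand), the ATPase most closely tied to lymphocyte development, had 176 and 189 reads in NSD1B WT and 111 and 144 in NSD1B KO. Its mean decreased from 25.2 ± 0.866 to 18.4 ± 4.23 CPM, a log2 fold change of -0.46 (SE 0.17, adjusted p = 0.0149, 95% interval -0.81 to -0.11). This decrease was the least secure of the 8 calls. It no longer passed without NSD1B KO replicate 1 (-0.24, adjusted p = 0.235) or without NSD1B WT replicate 2 (-0.40, adjusted p = 0.0858), nor with DESeq2 (-0.45, adjusted p = 0.0965) or limma-voom (-0.48, adjusted p = 0.0685), and it was -0.10 (adjusted p = 0.612) once a trend of fold change with exon length and GC content was removed.

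The balance between the ATPases was read as a ratio of CPM per kilobase of exon within each library. Smarca2 stood at 0.691 and 0.687 of Smarca4 in the NSD1B WT libraries and at 1.64 and 1.005 in the NSD1B KO libraries. On this scale Smarca4 was ahead in both controls, Smarca2 was ahead in NSD1B KO replicate 1, and they were level in NSD1B KO replicate 2. The order rests on the exon lengths used, 14.27 kb for Smarca2 and 6.475 kb for Smarca4 over all annotated exons, since by CPM alone Smarca2 was the higher in all 4 libraries. The change of the ratio between genotypes does not depend on these lengths. The log2 ratio was higher by 0.90 in NSD1B KO, from 0.55 without NSD1B KO replicate 1 to 1.25 without NSD1B KO replicate 2. With 2 libraries against 2, the two-sided exact permutation test cannot give a p below 0.333, which was the value for each of the ratios in this section.

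The SMARCC proteins, BAF155 (Smarcc1) and BAF170 (Smarcc2), dimerise with themselves or with each other and are the platform on which the other core subunits assemble. Their transcripts fell further than those of any other subunit among the 10. The stretches upstream of their RefSeq start sites are shown because these genes fell together; each is 200 bases long, from 250 to 51 bases before the start, on the plus strand of GRCm38.p6 (the assembly of mm10), at chr9:110131774-110131973 for Smarcc1, which is intronic in the longest GENCODE transcripts of the gene, and at chr10:128458986-128459185 for Smarcc2, which is upstream of the gene. Capitals mark matches on either strand to the ETS core CCGGAAG or to the NRF1 core GCGCATGC.
Smarcc1: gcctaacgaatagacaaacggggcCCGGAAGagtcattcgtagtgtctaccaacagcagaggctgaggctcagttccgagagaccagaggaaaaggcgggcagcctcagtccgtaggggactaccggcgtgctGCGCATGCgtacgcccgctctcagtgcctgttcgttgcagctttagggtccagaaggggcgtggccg
Smarcc2: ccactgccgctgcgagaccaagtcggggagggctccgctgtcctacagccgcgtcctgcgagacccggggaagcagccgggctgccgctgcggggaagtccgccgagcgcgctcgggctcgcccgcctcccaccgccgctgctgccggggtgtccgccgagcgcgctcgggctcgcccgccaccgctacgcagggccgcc
Smarcc1 held an ETS match starting 226 bases and an NRF1 match starting 117 bases before the start site, and Smarcc2 held none of the motifs searched. Of 32851 mouse promoter windows of the same length, 3.98% held CCGGAAG, 1.39% held GCGCATGC, 24.6% held the SP-type GC box GGGCGG and 28.4% held CCAAT, each on either strand. Among the 9 subunits with a window, CCGGAAG occurred in 2 (Smarcc1 and Smarca2), GCGCATGC in 2 (Smarcc1 and Smarca4), GGGCGG in 5 and CCAAT in 0. Both stretches were rich in CpG, with 31 CpG dinucleotides and 78.5% GC for Smarcc2 and 16 and 61% for Smarcc1, and no measurement of binding, histone marks or methylation was analysed here.

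Smarcc2 (ENSMUSG00000025369.15, chr10:128459248-128490482, plus strand) had 138 and 142 reads in the NSD1B WT libraries and 4 and 8 in the NSD1B KO libraries. The controls lay close together and the knockouts were near the limit of detection, with no overlap. Its mean decreased from 19.4 ± 0.0796 to 0.873 ± 0.448 CPM, a log2 fold change of -4.46 (SE 0.35, adjusted p = 3.77e-16), ranking 1601 from the lowest among the 11657 tested genes. The ratio of summed reads, scaled for depth, was 0.0445 with a 95% interval of 0.0227 to 0.079 that covers counting error only. Leaving out NSD1B KO replicate 2 gave -5.07 and leaving out NSD1B KO replicate 1 gave -4.01, so the size of the decrease, but not its direction, depended on single knockout libraries.

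Smarcc1 (ENSMUSG00000032481.17, chr9:110117708-110240178, plus strand) was the least abundant subunit in the controls, with 32 and 30 reads, and had 2 and 8 reads in the knockouts. Its mean decreased from 4.29 ± 0.265 to 0.734 ± 0.644 CPM, a log2 fold change of -2.54 (SE 0.51, adjusted p = 1.32e-05). The ratio of summed reads was 0.168 (95% interval 0.0766 to 0.329, counting error only). The fold change was -3.86 without NSD1B KO replicate 2 and -1.84 without NSD1B KO replicate 1, and with so few reads its size was poorly determined. Smarcc1 shares 123 bases, 1.57% of its exons, with Dhx30 on the opposite strand, which rose from 54 and 89 to 383 and 339 reads. The strand setting of the counting was not given, so reads in that stretch could not be assigned to either gene with certainty.

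Per kilobase, the SMARCC genes together amounted to 4.05 and 4.02 CPM in NSD1B WT and to 0.136 and 0.366 CPM in NSD1B KO. Smarcc2 exceeded Smarcc1 by 6.08 and 6.68 times in the controls and by 2.82 and 1.41 times in the knockouts, a drop of the log2 ratio by 1.68 that rests on 2 to 8 reads per gene in the knockout libraries.

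The SMARCD subunits, BAF60 proteins that link the complexes to transcription factors, differed from each other. Smarcd2 (BAF60B; ENSMUSG00000078619.10, chr11:106263179-106272972, minus strand), known for its role in granulocyte differentiation, had 257 and 283 reads in NSD1B WT and 150 and 92 in NSD1B KO. Its mean decreased from 37.3 ± 1.94 to 17.3 ± 5.07 CPM, a log2 fold change of -1.11 (SE 0.16, adjusted p = 4.36e-08). Smarcd1 (BAF60A; ENSMUSG00000023018.5, chr15:99702129-99713991, plus strand) had 104 and 95 reads in NSD1B WT and 117 and 78 in NSD1B KO. The knockout libraries lay on either side of the controls, and the log2 fold change was 0.02 (SE 0.21, adjusted p = 0.935) with a 95% interval of -0.41 to 0.45. Smarcd1 shares 7.13% of its exon bases with Gm17349 and 5.56% with Gm34939, both on the opposite strand. Per kilobase, Smarcd2 exceeded Smarcd1 by 2.77 and 3.34 times in the controls and by 1.44 and 1.32 times in the knockouts, so the log2 ratio dropped by 1.14.

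Smarcb1 (SNF5, the core subunit that contacts the nucleosome acidic patch and is lost in rhabdoid tumours; ENSMUSG00000000902.13, chr10:75896769-75921617, minus strand) had 108 and 98 reads in NSD1B WT and 81 and 76 in NSD1B KO. The knockout libraries were both below the controls, at 11.26 and 11.3 against 15.11 and 13.41 CPM. The log2 fold change of -0.34 (SE 0.22, adjusted p = 0.149) did not pass the test, with a 95% interval of -0.78 to 0.10. Smarce1 (BAF57, the HMG-box subunit that binds DNA; ENSMUSG00000037935.16, chr11:99209047-99231017, minus strand) was the most abundant of the 10, with 557 and 573 reads in the controls and 951 and 763 in the knockouts. Its mean increased from 78.2 ± 0.307 to 123 ± 13.3 CPM, a log2 fold change of 0.65 (SE 0.10, adjusted p = 3.49e-08). Its processed pseudogene Smarce1-ps1 had 9 and 10 reads in NSD1B WT and 8 and 2 in NSD1B KO.

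Actl6a (BAF53A; ENSMUSG00000027671.14, chr3:32706298-32726973, plus strand) encodes the actin-related subunit that SWI/SNF shares with the INO80 and TIP60 complexes. It was at 39.18 and 37.62 CPM in NSD1B WT and at 55.87 and 53.51 CPM in NSD1B KO, with both genotypes tightly grouped. The log2 fold change was 0.51 (SE 0.12, adjusted p = 0.000133). Actl6a shares 452 bases, 11.6% of its exons, with Mrpl47 on the opposite strand, which itself rose by 0.43 on the log2 scale, and to which gene the reads of that stretch belong was not tested.

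Pbrm1 (BAF180, the bromodomain subunit of PBAF that reads acetylated histones; ENSMUSG00000042323.17, chr14:31019138-31121592, plus strand) showed the largest increase among the 10. It was at 54.86 and 47.47 CPM in NSD1B WT and at 107.4 and 94.39 CPM in NSD1B KO, and every knockout library was well above every control. The log2 fold change was 0.98 (SE 0.11, adjusted p = 9.76e-12), and leaving out any library kept it between 0.88 and 1.12. Gnl3, transcribed divergently from the same region with 15 shared exon bases, rose as well, from 341 and 362 to 826 and 696 reads (log2 fold change 1.17).

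The order of the subunits was compared per kilobase of all annotated exons, and it depends on those lengths where genes use only some of their exons. In NSD1B WT, Smarce1 led at 11.8 ± 0.0462 CPM per kilobase, followed by Smarcd2 (10.4 ± 0.541) and Actl6a (9.88 ± 0.285), whose libraries overlapped. Pbrm1 (5.78 ± 0.591) and Smarca4 (3.90 ± 0.134) came next, then Smarcc2 (3.49 ± 0.0143) and Smarcd1 (3.42 ± 0.274), again overlapping, then Smarca2 (2.69 ± 0.0802), Smarcb1 (1.798 ± 0.152) and Smarcc1 (0.548 ± 0.0338). In NSD1B KO, Smarce1 (18.5 ± 1.99), Actl6a (14.1 ± 0.428) and Pbrm1 (11.4 ± 1.04) were separate from the rest. Smarcd2 (4.81 ± 1.41), Smarca2 (3.61 ± 0.412), Smarcd1 (3.46 ± 0.819) and Smarca4 (2.84 ± 0.653) formed a run in which each overlapped the next. Smarcb1 (1.42 ± 0.00361) lay between these and the SMARCC genes, which were last and overlapped each other at 0.157 ± 0.0807 for Smarcc2 and 0.0937 ± 0.0823 for Smarcc1. The 10 subunits together gave 54.03 and 53.3 CPM per kilobase in NSD1B WT and 64.08 and 56.61 in NSD1B KO, so the total did not fall. Smarcb1 thus exceeded the SMARCC sum in both knockout libraries, whereas in both controls it was below that sum.

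**Figure D3:**
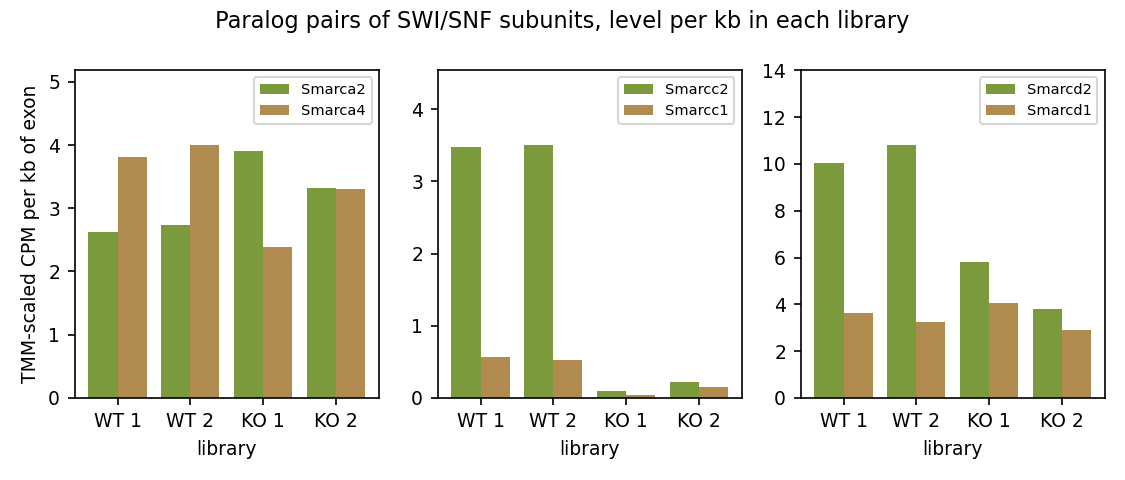
Level of each paralog in CPM per kilobase of exon in every library, as bars from 0 with 1 bar per gene and library and no error bar, in separate panels with their own axes for Smarca2 and Smarca4, Smarcc2 and Smarcc1, and Smarcd2 and Smarcd1. Smarca4 is the taller bar in both NSD1B WT libraries and not in either NSD1B KO library, and the summed SMARCC bars drop from 4.05 and 4.02 to 0.136 and 0.366.

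The complexes hold further subunits, of which 21 were listed and 17 could be tested. Of these, 9 were higher and 6 lower in NSD1B KO and 2 did not pass, that is 88.2% called against 78.2% of all genes, with a median log2 fold change of 0.67. Actl6b, Dpf1 and Dpf3, which belong to the neuronal or muscle forms of the complex, were at 0 in all libraries, and Bcl11b, a T lineage factor, had 1 read.

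The DNA-binding ARID subunits rose or did not pass. Arid1a, the defining subunit of canonical BAF, had 232 and 203 reads in NSD1B WT and 792 and 709 in NSD1B KO (log2 fold change 1.84, SE 0.11, adjusted p = 4.55e-20). Its alternative Arid1b was at 0.27 (SE 0.15, adjusted p = 0.1, 95% interval -0.04 to 0.58). Arid2, the ARID subunit of PBAF, rose from 106 and 161 to 909 and 765 reads (log2 fold change 2.70, SE 0.13, adjusted p = 4.04e-24).

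Among the other PBAF subunits, Brd7 rose by 0.68 (adjusted p = 4.18e-06) and Phf10 fell from 81 and 88 to 32 and 31 reads (log2 fold change -1.37, adjusted p = 1.83e-05). With Pbrm1 and Arid2, 3 of 4 PBAF genes were therefore higher and 1 lower. Of the 7 genes listed for canonical BAF, 4 were tested. Arid1a was the only one higher, and the PHD finger gene Dpf2 (472 and 558 to 80 and 87 reads, log2 fold change -2.57, adjusted p = 3.50e-21) and Bcl11a (399 and 447 to 351 and 309 reads, -0.30, adjusted p = 0.0131) were lower. The Bcl11a call was lost with DESeq2 (adjusted p = 0.0908), without NSD1B WT replicate 2 (-0.21, adjusted p = 0.148) and without NSD1B KO replicate 2 (-0.26, adjusted p = 0.058). In non-canonical BAF, which carries BRD9 and a GLTSCR1 subunit in place of the ARID proteins, Brd9 rose by 0.67 (adjusted p = 2.55e-05) and Bicral by 1.74 (adjusted p = 3.38e-09), while Bicra was at -0.06 (adjusted p = 0.795, 95% interval -0.43 to 0.32). With the exon length and GC trend removed, Arid1b and Bicra passed the test at 0.54 each.

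The SS18 subunits, one of which is fused to SSX genes in synovial sarcoma, were both higher. Ss18 rose from 126 and 142 to 295 and 288 reads (log2 fold change 1.18), and Ss18l1 went from 0 in both controls to 54 and 38 reads, at least 31.8-fold higher against a floor of 3 reads over the control group. The BCL7 subunits split. Bcl7a was at 0 in both controls with 32 and 37 reads in the knockouts, at least 23.9-fold higher, Bcl7c rose from 27 and 28 to 153 and 180 reads (log2 fold change 2.65), and Bcl7b fell from 515 and 475 to 163 and 135 reads (-1.68). Smarcd3, the SMARCD paralog of heart and muscle, fell from 18 and 16 to 2 and 4 reads (-2.40, adjusted p = 0.00018). Its fold change was -1.96 without NSD1B KO replicate 1 and -3.00 without NSD1B KO replicate 2. Actb, a subunit as well as the cytoskeletal actin, fell from 25036 and 25332 to 11888 and 10423 reads (-1.12), a value that near-identical actin genes and pseudogenes make uncertain.

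Counted by role over all 31 subunits, the 7 core and shared genes held 4 of the decreases (Smarcc1, Smarcc2, Smarcd2 and Smarcd3), 1 increase (Smarce1) and 2 that did not pass. The ATPases had 1 of 2 higher and 1 lower, and the actin and actin-related genes 1 of 2 tested higher and 1 lower. Canonical BAF had 1 of 4 tested genes higher and 2 lower, PBAF 3 of 4 higher and 1 lower, non-canonical BAF 2 of 3 higher and 0 lower, SS18 2 of 2 higher and BCL7 2 of 3 higher and 1 lower. Over all tested genes 37.1% were higher and 41.1% lower, and modules of 2 to 7 genes are too small to be set apart from these shares. The grouping into modules was made after the values were known and was not tested.

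**Figure D4:**
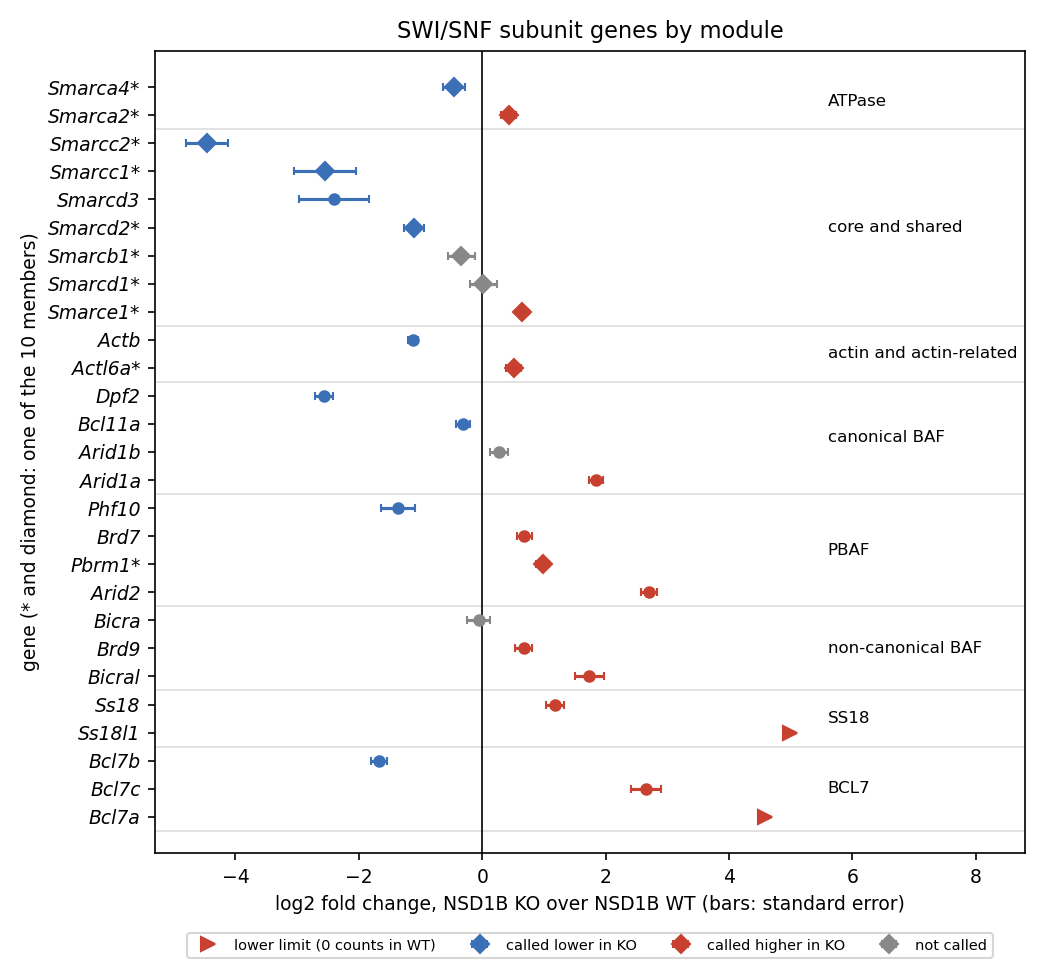
Log2 fold change of NSD1B KO over NSD1B WT for the SWI/SNF subunits that could be tested, grouped by module, with bars for the standard error, diamonds for the 10 subunits described first, red and blue for genes that passed the test and grey for those that did not. Right-pointing triangles are lower limits for genes at 0 in NSD1B WT. The core group lies mostly below 0, led by Smarcc2 at -4.46, and PBAF lies above 0 apart from Phf10 at -1.37.

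The neighbourhoods of the SMARCC genes differed. Myl6 lies 377 bases downstream of Smarcc2 and had 4762 and 4917 reads in NSD1B WT and 5092 and 4466 in NSD1B KO (log2 fold change 0.03, adjusted p = 0.682), and Rnf41, the nearest tested gene on the other side, did not pass either (-0.39, adjusted p = 0.214). Next to Smarcc1, Dhx30 rose (2.39, adjusted p = 1.37e-17) and Elp6 fell from 237 and 210 to 1 and 2 reads. Psmc5, 58 bases from Smarcd2, rose from 217 and 219 to 528 and 435 reads (1.19) whereas Smarcd2 fell. These genes were named after their values were seen.

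Other chromatin remodellers gave a background for the subunits. Among 29 listed ATPases of the ISWI, CHD, INO80 and other Snf2 families, 24 were tested, of which 7 were higher and 11 lower (75% called, median log2 fold change -0.19). The helicases Hltf (52 and 46 to 400 and 300 reads, 2.88) and Smarcad1 (100 and 111 to 490 and 428 reads, 2.17) had the largest increases, and Btaf1 (381 and 440 to 0 and 0 reads, at least 264-fold lower) and Ino80 (179 and 132 to 14 and 9 reads, -3.69) had the largest decreases, among called genes averaging 3 or more on the log2 CPM scale. Among the 27 other genes of the INO80 and TIP60 complexes, which share Actl6a, 11 were higher, 15 lower and 1 did not pass (96.3% called, median -1.05). Morf4l2 (4.63, adjusted p = 3.51e-26) and Ruvbl1 (1.47) rose most under the same limit. Nfrkb (-3.51, and -2.99 without NSD1B KO replicate 1 or -4.25 without NSD1B KO replicate 2) and Trrap (-2.02) fell most, again under that limit. Below the limit, Actr5, Dmap1, Vps72 (-4.07) and Ino80b (-2.33) fell further than Trrap, Actr5 and Dmap1 to 0 reads in NSD1B KO. Both lists stand beside 37.1% higher and 41.1% lower over all tested genes.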

How the data were processed

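The data were RNA-seq read counts of 4 libraries of sorted B220+ spleen B cells. Per the labels and the methods, 150 bp paired-end reads from an Illumina HiSeq were mapped to mm10 with Bowtie2, and the authors used Cufflinks for FPKM, which were not used here. The authors deposited whole-number counts per Ensembl gene for each library. Neither the sources used here nor the files name the counting program, the annotation it read or whether it used strand. Reads listed under no gene were left out (44.3% to 44.6% no feature, 2.21% to 2.41% ambiguous, 11.2% to 13.2% not unique, each relative to all listed entries).

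Genes were kept by filterByExpr (minimum count 10, total 15), scaled by TMM and tested with the quasi-likelihood F test of edgeR 4.0.16 in R 4.3.3, genotype as the only term, with limma 3.58.1 and DESeq2 1.42.0 as alternatives. A call needed an adjusted p below 0.05 (Benjamini-Hochberg) and a fold change above 1.2, the limits in the study's methods, whose p was not stated to be adjusted. The code was tested on simulated data. Gene positions and exon lengths came from GENCODE M21 (99.5% of identifiers matched), and promoter sequences from RefSeq. Named genes were all members, Nsd1, listed other subunits that passed the test or could not be tested, and for each further chromatin list the 2 called genes with the largest change in each direction at a mean log2 CPM of at least 3. Arid1b, Bicra and the neighbouring genes were named after their values were seen. Members and lists were chosen with earlier results of these data known. Counting intervals and floors (3 reads over a group) cover counting error only.

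Alternatives were size factors of DESeq2, other filters, stricter limits, limma-voom, each library left out, a replicate block, and removal of a loess trend on exon length and GC content.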

Additional observations from a re-analysis of the deposited data

How the results depend on the processing

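The number of subunits called higher stayed at 4 in 16 of 17 alternatives. The number called lower, 4 in the main test, ranged from 2 to 4 over the alternatives. It was 3 with the Wald test of DESeq2, with limma-voom and with the exon length and GC trend removed. At an adjusted p under 1e-05 and a log2 change of more than 0.5 either way, 2 subunits were higher (Pbrm1 and Smarce1) and 2 lower (Smarcc2 and Smarcd2), and 3 of the other subunits were lower. Requiring 1 CPM in all 4 libraries removed Smarcc1 and Smarcc2 by construction, which left 2 members lower, gave 2855 genes higher and 2991 lower over all genes, and moved the median log2 fold change of the members to 0.18. That median, -0.16 with all 10, lies between a group of members that rose and one that fell. With single libraries left out it lay between -0.246 and -0.0437, and it was 0.13 with the exon length and GC trend removed and 0.12 with that trend removed together with the replicate block. Smarca4 was lost in 6 of 15 alternatives and Bcl11a in 3, and Bicra changed sign to 0.54 with the length and GC trend removed, with or without the block. The causes were not tested.

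The labels do not say whether the replicate numbers shared by the genotypes pair the libraries. The differences of replicate 1 minus replicate 2 correlated across 11657 genes at r = 0.06 between genotypes, and genes are not independent. With 2 libraries per genotype, this value cannot settle whether the libraries were paired. With the replicate block, 4 members were higher and 4 lower, with a median of -0.17. Counts of 2 to 8 reads limit the size of the SMARCC decreases.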
